A study of Danio rerio with 8 samples.

Results

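The 84 cytosolic ribosomal protein genes listed in both expression tables were described here, out of 30838 genes in each table. They were chosen by gene symbol alone: names made of rps or rpl with a number, the rplp genes, rpsa and faua, without the rps6k kinases. The rule took 35 genes of the small subunit, 43 of the large subunit, 4 of the acidic stalk that sits on the large subunit (rplp0, rplp1, rplp2 and rplp2l), and 2 genes whose products work in ribosome assembly or regulation rather than in the mature ribosome (rps19bp1 and rpl7l1). All 84 matched a gene of the RefSeq zebrafish annotation (assembly GRCz12tu), 83 of them by symbol and rplp2l as a synonym.

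The libraries were made from eosinophil lineage cells of zebrafish larvae (AB strain) at 7 dpf that carried Tg(eslec:eGFP), a transgene in which the promoter of the lectin gene eslec drives eGFP. About 500 eGFP+ cells were sorted from dissociated whole larvae for each library. The groups were cebp1-/- (the smu1 allele) with cebp1+/+, and cebpb-/- (the szy7 allele) with cebpb+/+, with 2 libraries per group, each from a different pool of larvae. cebp1 and cebpb encode transcription factors of the C/EBP family, and each mutant is compared with the wild type of its own table. Since the cells were chosen by the activity of the eslec promoter, a change in that promoter would also change which cells were sorted. Values are TPM, a measure corrected for gene length whose sum is the same in every library, so that a value is a share of the transcript pool.

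Each cytosolic ribosome joins a small subunit, which holds the mRNA and reads its codons, to a large subunit, which forms the peptide bonds. The stalk proteins recruit the GTPase factors that drive translation. The subunits take up their proteins in fixed proportions, and the mRNAs of vertebrate ribosomal proteins carry a 5′ terminal oligopyrimidine (TOP) motif that lets the cell control their translation as a group. They are among the most abundant mRNAs of most cells, blood progenitors included. In humans, loss of 1 copy of genes such as RPS19 or RPS26 causes Diamond-Blackfan anaemia.

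Before the members are described, the libraries need a check. eslec had 20719.5 and 24085 TPM in cebp1-/- cells, against 11840.1 and 14617 TPM in cebp1+/+ cells, and 11658 and 17653 TPM in cebpb-/- cells, against 36138 and 31898 TPM in cebpb+/+ cells. Of the 4 eosinophil genes listed (eslec, gata2a, fcer1gl and cxcr4b), 4 were higher without overlap in cebp1-/- cells. In cebpb-/- cells 2 were lower without overlap, eslec and cxcr4b. The other genes overlapped there: gata2a had 600 and 624 TPM, against 540 and 651 TPM in the wild type, and fcer1gl 1396 and 2142 TPM, against 1709 and 1988 TPM. The targeted gene cebpb was at 2928 and 1480.2 TPM in cebpb-/- cells, against 6360.4 and 5716 TPM in cebpb+/+ cells, and cebp1 was listed at 0 in all 8 libraries, so its level checks no label. Of the markers of other cells, lyz (neutrophils) stayed at or below 1.47 TPM and mpeg1.1 (macrophages) was listed at 0 throughout, while others of the same lists were present and moved. The 4 genes listed for neutrophils summed to 10.2 and 8.40 TPM in cebp1-/- cells, against 65.4 and 60.8 TPM in cebp1+/+ cells, with 4 of 4 lower without overlap. They summed to 59.6 and 61.5 TPM in cebpb-/- cells, against 22.7 and 39.1 TPM in cebpb+/+ cells, with 1 of 4 (cfl1l) higher. In the cebpb table cfl1l alone had 46.9 and 57.5 TPM in the mutant, against 12.6 and 23.5 TPM in the wild type. There lyz was listed at 0 and mpx at no more than 0.0634 TPM. The direction of cfl1l was that of the keratinocyte genes below in both tables, and the source of its transcripts was not tested. The 4 macrophage genes summed to 11.5 and 10.1 TPM in cebp1-/- cells, against 46.0 and 23.7 TPM in cebp1+/+ cells, with 2 of 4 lower, and to 202 and 7.31 TPM in cebpb-/- cells, against 171 and 121 TPM in cebpb+/+ cells, with 1 of 4 lower and 1 higher. The sum of 3 erythroid genes reached 110.0 TPM in a single library, cebpb+/+ replicate 2. The 5 muscle genes summed to 590.6 and 10.4 TPM in cebp1-/- cells, against 41.6 and 106 TPM in cebp1+/+ cells. They summed to 111 and 17.5 TPM in cebpb-/- cells, against 2.92 and 7.19 TPM in cebpb+/+ cells, with 1 of 5 higher without overlap. Transcripts of 5 keratinocyte genes moved with genotype: they summed to 7.78 and 9.95 TPM in cebp1-/- cells, against 158 and 1047 TPM in cebp1+/+ cells, and to 269.8 and 827 TPM in cebpb-/- cells, against 5.13 and 58.9 TPM in cebpb+/+ cells. Of the 5, 4 were lower in cebp1-/- cells and 4 were higher in cebpb-/- cells, in each case without overlap between genotypes. Over all genes tested, 61.3% were lower and 4.94% higher without overlap in cebp1-/- cells. In cebpb-/- cells these shares were 14.7% and 31.2%. Among genes other than members, 65.5% of those at 1 to 10 TPM and 51.8% of those at 10 to 100 TPM were lower in cebp1-/- cells. The counts of marker genes were not tested against these shares. The part of these other cells' transcripts in the results below was not tested.

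Ribosomal protein genes took more than 20% of the transcript pool in 6 of the 8 libraries. Their share of TPM was 20.2% and 23.9% in cebp1-/- cells, against 20.9% and 20.7% in cebp1+/+ cells. In cebpb-/- cells it was 13.9% and 15.8%, against 21.1% and 21.0% in cebpb+/+ cells. The cebpb-/- libraries therefore lay below both of their wild-type libraries, while the cebp1-/- libraries lay on either side of theirs. With mitochondrial and microRNA genes taken out of the total, the share was 27.8% and 31.3% in cebp1-/- cells, against 26.9% and 27.3% in cebp1+/+ cells, so that those groups no longer overlapped, and 14.6% and 16.6% in cebpb-/- cells, against 22.0% and 21.7% in cebpb+/+ cells. The mean share was 14.8% ± 1.34 in cebpb-/- cells and 21.0% ± 0.105 in cebpb+/+ cells (SD, n = 2 each), a difference of -6.23 percentage points. For the other mutation it was 22.0% ± 2.65 in the mutant and 20.8% ± 0.122 in the wild type (SD, n = 2 each), a difference of 1.21 points that was smaller than the spread between the mutant libraries. A two-sided exact permutation test gave p = 0.33 for the cebpb table, the smallest p that 2 against 2 libraries allow, and p = 1 for the cebp1 table. In these bulk libraries, fewer cells rich in these mRNAs and less of them per cell cannot be told apart.

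**Figure D1:**
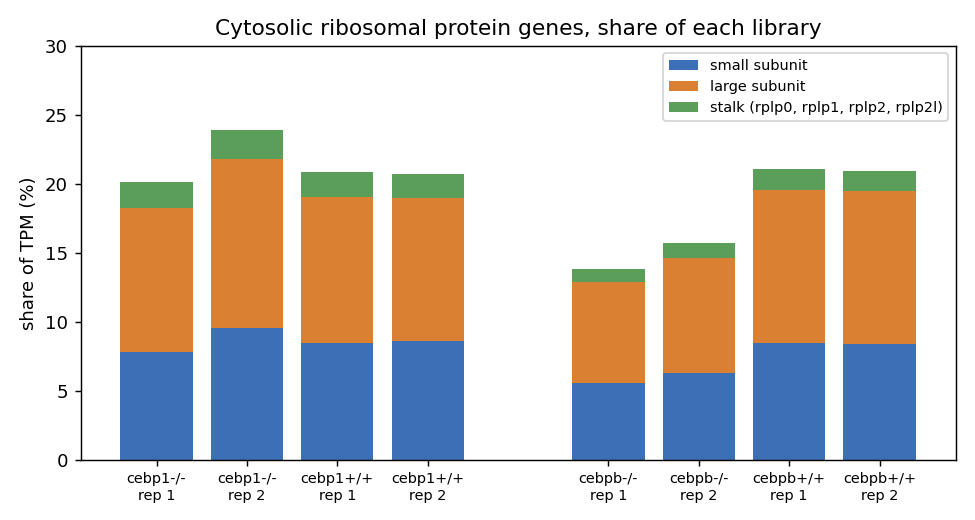
Share of TPM (%, y axis) taken by the small subunit, large subunit and stalk genes in each of the 8 libraries (x axis, 1 bar per library, mutant bars left of their wild type). Without the 2 assembly genes, which are not drawn, the cebpb-/- bars reach 13.8% and 15.7%, below the 21.1% and 20.9% of the cebpb+/+ bars, and the cebp1-/- bars lie on either side of the cebp1+/+ bars.

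Both subunits contributed to that lower share in the same proportion. Small subunit genes summed to 5.59% and 6.32% of TPM in cebpb-/- cells, against 8.50% and 8.43% in cebpb+/+ cells. Large subunit genes without the stalk summed to 7.30% and 8.29% in cebpb-/- cells, against 11.1% and 11.04% in cebpb+/+ cells, and the 4 stalk genes to 0.948% and 1.12%, against 1.51% and 1.48%. The ratio of small to large subunit TPM, with the stalk counted in the large subunit, was 0.678 and 0.671 in cebpb-/- cells, against 0.675 and 0.673 in cebpb+/+ cells, so the groups overlapped and differed by 0.000568 in the mean (two-sided exact permutation p = 1). For the other mutation the ratio was 0.636 and 0.669 in cebp1-/- cells, against 0.683 and 0.708 in cebp1+/+ cells. Those groups did not overlap, with a difference of -0.043 that again met only the smallest p the design allows (exact p = 0.33).

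The level of single members spanned a wide range in every library. A mean of at least 50 TPM was reached by 71 members in the cebp1 table, between 391 and 9913 TPM with a median of 2842 TPM, and by 72 members in the cebpb table, between 88.2 and 8991 TPM with a median of 2012 TPM. Among the highest means were those of rpl19, rplp0 and rps20 in the cebp1 table and of rps20, rpl26, rpl19 and rpl3 in the cebpb table. Rpl19 takes part in a bridge between the subunits, Rps20 sits in the head of the small subunit, and Rpl3 lies close to the peptidyl transferase centre. Small and large subunit members of at least 50 TPM had like medians: 2894 and 2749.9 TPM in the cebp1 table, and 2008 and 1883 TPM in the cebpb table. The members made up 58 of the 100 most abundant genes in cebp1-/- cells, against 59 in cebp1+/+ cells. They made up 32 of the 100 in cebpb-/- cells, against 42 in cebpb+/+ cells.

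The order of the members was nearly the same between replicates. Across the 71 members of at least 50 TPM in both tables, log2 TPM of the replicates of a group correlated at Pearson 0.979 to 0.993, a description across genes that share a library and are not independent replicates. The wild types of the 2 tables correlated at Pearson 0.739 and Spearman 0.649. The Pearson value compares the levels of the members relative to each other, and the Spearman value compares their order. The tables were normalized separately, and the cause of this lower correlation was not tested.

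The remaining members were listed at values far below those of their partners in the ribosome. A mean under 50 TPM was found for 13 members in the cebp1 table, with no value above 54.6 TPM, and for 12 in the cebpb table, with no value above 45.1 TPM. The 12 were also among the 13, and the gene that differed was rpl7l1. The 4 lowest were rps13, rpl30, rpl39 and rps27a in the cebp1 table and rpl30, rps27a, rps8b and rpl39 in the cebpb table. rpl30 was listed at 0 in all 8 libraries, rps13 at 0 in the 4 libraries of the cebp1 table and at no more than 1.39 TPM in the others, and rpl39 at no more than 0.582 TPM. rps27a, whose product is made as a fusion with ubiquitin, reached at most 0.283 TPM. rpl36a, rps15, rps12, rps3a, rpl12 and rpl13a, also structural ribosomal proteins, were at or below 34.1 TPM in every library, and the remaining low members were rps8b and the assembly gene rps19bp1. Since every ribosome needs such proteins, a value at or near 0 is given here only as listed; the part of the annotation and of reads shared between genes in these values was not tested.

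In cebpb-/- cells nearly every abundant ribosomal protein gene was lower than in cebpb+/+ cells, and the distribution was narrow. The median log2 fold change over the 78 members tested (mean of at least 1 TPM) was -0.50, on the scale of log2 of TPM plus 1, beside 0.46 over all 11660 genes tested. Of the 78, 72 had a negative and 6 a positive fold change. For 67 of them (85.9%) both mutant libraries lay below both wild-type libraries, beside a background of 14.7% of all genes tested; for 2 (2.56%) both mutant libraries lay above, beside 31.2% of all genes. Among members of at least 50 TPM, 27 of 29 small subunit genes, 34 of 38 large subunit genes and 4 of 4 stalk genes were lower without overlap. Their median fold changes were -0.51, -0.48 and -0.58 (log2), so the subunits did not separate. The median member of at least 50 TPM stood at 0.707 times its wild-type level.

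No member passed the threshold when the cebpb table was fitted alone. limma called 0 members higher and 0 lower at an adjusted p under 0.05, as it called 0% of all genes in either direction. At an unadjusted p under 0.05, 53 members were lower and 1 was higher, beside 513 lower and 1238 higher of 11660 genes. The smallest adjusted p among members was 0.155, for rps3 and rps19, with 2 libraries per group. A single fit of all 8 libraries in 4 groups, in which both tables share an estimate of the spread, was added after the data had been seen. In that fit 18 of 78 members fell in cebpb-/- cells and 1, rpl10, rose, beside backgrounds of 1.93% of 11536 genes lower and 4.27% higher. Those calls depended on single libraries. None stood without either cebpb+/+ library, and few stood without any 1 library of the cebp1 table. Without cebpb-/- replicate 1 the median of the members was -0.40 and fewer were called lower. Without cebpb-/- replicate 2 it was -0.60 and more were called lower. Calls over all genes rose in both of these cases.

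**Figure D2:**
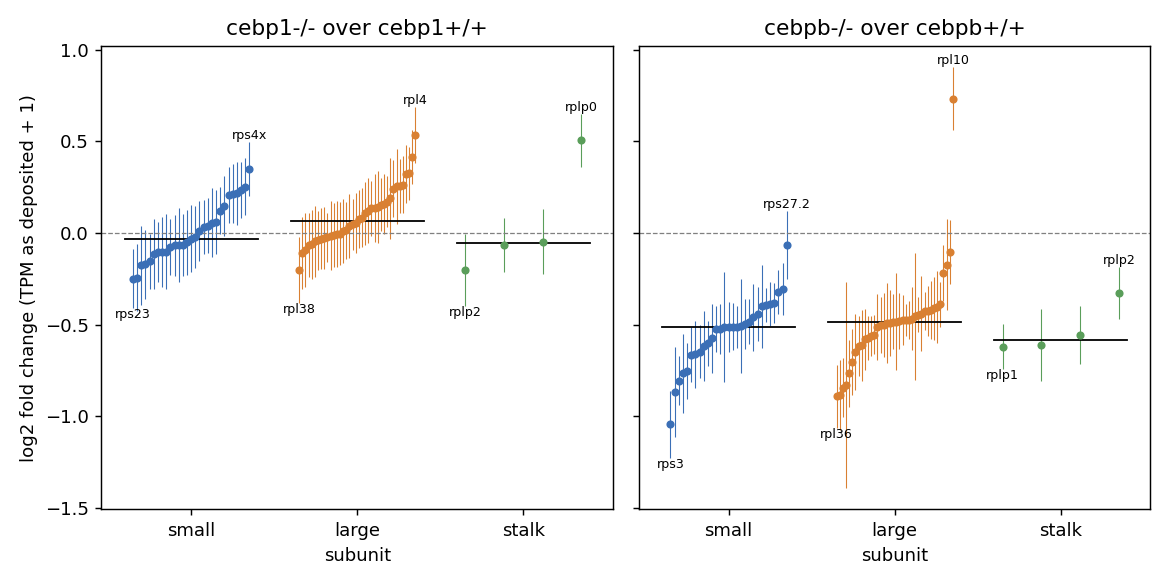
log2 fold change (y axis, on TPM as deposited plus 1, error bars 1 SE) of each member with a mean of at least 50 TPM, by subunit (x axis), in the cebp1 table (left panel) and the cebpb table (right panel). Black lines mark the medians, which are -0.03, 0.07 and -0.06 for small subunit, large subunit and stalk in the cebp1 table and -0.51, -0.48 and -0.58 in the cebpb table.

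rps3, which encodes a small subunit protein at the mRNA entry channel, had the largest decrease among members above 20 TPM. It had 580.1 and 505 TPM in cebpb-/- cells, against 1122 and 1113 TPM in cebpb+/+ cells, and fell by 1.04 on the log2 scale in the 8-library fit (SE 0.14, adjusted p = 0.0143). The replicates of each group lay close together beside the gap between the groups.

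Other small subunit genes followed at smaller sizes. rps19, the gene most often mutated in human Diamond-Blackfan anaemia, had 1548 and 1451 TPM in cebpb-/- cells, against 2662 and 2574 TPM in cebpb+/+ cells (log2 -0.80, SE 0.17, adjusted p = 0.0366, limma over 8 libraries). rps14, whose human counterpart lies in the region lost in the 5q- syndrome, had 1202 and 1326 TPM, against 1985 and 1969 TPM in the wild type (log2 -0.65, adjusted p = 0.037). In both of these genes no mutant library reached a wild-type one. rps28 had 686 and 1063 TPM in cebpb-/- cells, against 1598 and 1520.2 TPM in cebpb+/+ cells, and its wider spread between the mutant libraries left it outside the threshold (log2 -0.87, adjusted p above 0.05 in either fit). rpsa, which serves both in the small subunit and as the precursor of a laminin receptor in mammals, had 2989.6 and 3282 TPM, against 4451 and 4472 TPM in the wild type (log2 -0.51, adjusted p = 0.0325).

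Large subunit genes moved by like amounts. rpl27a had 492 and 444 TPM in cebpb-/- cells, against 831 and 892 TPM in cebpb+/+ cells (log2 -0.88, SE 0.16, adjusted p = 0.0248, limma over 8 libraries). rpl36 had 2316 and 3132 TPM, against 4879 and 5107 TPM in the wild type (log2 -0.89, adjusted p = 0.0363). rpl37 had 2111 and 2749 TPM, against 4394 and 4253 TPM in the wild type (log2 -0.84, adjusted p = 0.0325). All 3 are small proteins of the large subunit, and none of their groups overlapped. rpl17, near the exit of the nascent peptide, had 820.2 and 756 TPM in cebpb-/- cells, against 1195 and 1221 TPM in cebpb+/+ cells (log2 -0.62, adjusted p = 0.0356).

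The stalk was lower as a whole. rplp0, the base of the stalk, had 1671 and 1582 TPM in cebpb-/- cells, against 2644 and 2166 TPM in cebpb+/+ cells. rplp1 had 3981 and 4774 TPM, against 6719.9 and 6673 TPM in the wild type, and was the stalk gene called in the 8-library fit (log2 -0.62, adjusted p = 0.0384). rplp2 had 2428 and 2892 TPM, against 3192 and 3449 TPM in the wild type, the smallest difference of the 4 (log2 -0.32).

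The study itself named rps8a, rpl38, rps3 and rps26, among others. It took them from genes downregulated in its own test of these libraries that were also bound by Cebpβ in ChIP-Seq of whole larvae. Their direction here is therefore not independent evidence. These 4 were lower in cebpb-/- cells without overlap, and rps3 and rps8a were among the 18 called in the 8-library fit. rps8a had 1585 and 1712 TPM in cebpb-/- cells, against 2442 and 2294 TPM in cebpb+/+ cells. rpl38, needed for the translation of certain Hox mRNAs in the mouse, had 1569.8 and 2066 TPM, against 2542 and 2556 TPM in the wild type. rps26 had 786 and 1076 TPM, against 1689 and 1444 TPM in the wild type. Of these 4 genes, only rps3 had groups that did not overlap in the cebp1 table, with 2953 and 3311 TPM in cebp1-/- cells, against 2791 and 2522 TPM in cebp1+/+ cells.

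rpl10 went the other way. This gene, whose product joins the large subunit late and is needed before it can enter translation, had 1075 and 1004 TPM in cebpb-/- cells, against 618 and 631 TPM in cebpb+/+ cells. It rose by 0.73 (log2, SE 0.15, adjusted p = 0.0312) in the 8-library fit on TPM as deposited. Scaled by genes of like expression its fold change was 0.54 (adjusted p = 0.0815), and scaled by all genes 0.18 (adjusted p = 0.598), so the call held only on the deposited scale, and there not when a cebpb+/+ library or a library of the cebp1 table was left out. Both mutant values lay outside the wild-type range. It was the only member of at least 50 TPM that was higher without overlap, and the other such member, rps15, was listed at 0.424 and 5.32 TPM in cebpb-/- cells, against 0.158 and 0.303 TPM in cebpb+/+ cells.

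Members of at least 50 TPM with overlapping groups in the cebpb table included rpl5a, rpl5b, rpl22l1, rps27.2 and rpl7l1. rpl5b, which with 5S rRNA and Rpl11 forms a particle that restrains the p53 regulator Mdm2 in mammals, had 922 and 1091 TPM in cebpb-/- cells, against 1077 and 1076 TPM in cebpb+/+ cells (log2 -0.10). Its paralog rpl5a had 894 and 1023 TPM, against 1329 and 875 TPM in the wild type. rps27.2 had 1001 and 1251 TPM, against 1203 and 1139.7 TPM in the wild type (log2 -0.07). The assembly genes gave no clear direction: rpl7l1 had 101 and 195 TPM in cebpb-/- cells, against 106 and 121 TPM in cebpb+/+ cells, and rps19bp1 had 25.3 and 39.1 TPM, against 45.1 and 8.45 TPM in the wild type.

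**Figure D3:**
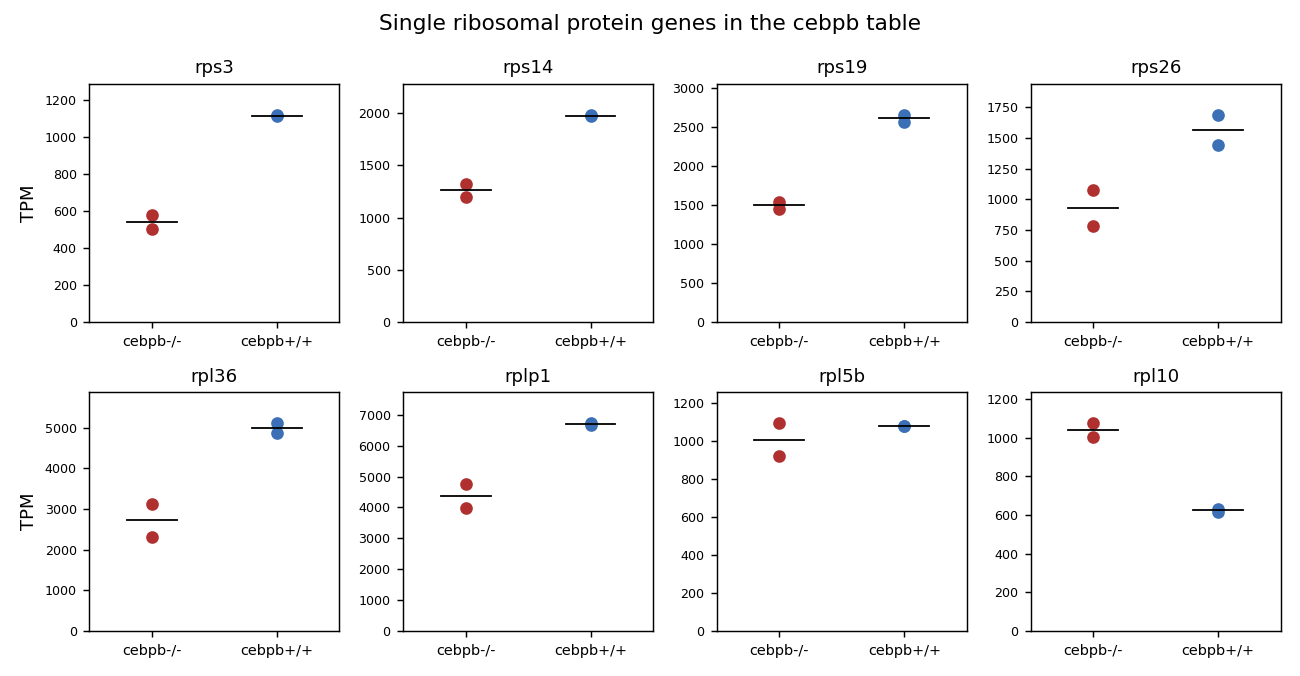
TPM (y axis, from 0) of 8 ribosomal protein genes in the 2 cebpb-/- libraries (left in each panel) and the 2 cebpb+/+ libraries (right), 1 point per library, with the group mean as a line. rps3, rps14, rps19, rps26, rpl36 and rplp1 are lower in both mutant libraries, rpl5b overlaps between genotypes, and rpl10 is higher in both mutant libraries.

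Abundant genes of other kinds did not share this pattern to the same extent. In the cebpb table the 445 other genes between the 10th and 90th percentile of the members' mean level (226 to 5168 TPM) had a median log2 fold change of 0.20, and 26.1% of them were lower without overlap. Of genes of 3000 TPM or more, 22 of 22 members and 16 of 37 other genes were lower without overlap, with medians of -0.51 and -0.14. Between 1000 and 3000 TPM the counts were 28 of 32 members and 30 of 72 other genes (medians -0.51 and -0.02), and between 300 and 1000 TPM 14 of 15 members and 59 of 248 other genes (medians -0.49 and 0.23). The quartiles of the members spanned -0.61 to -0.41, against -0.33 to 0.83 for the genes of like expression. Scaling the libraries by those genes moved the median of all genes to 0.31, left the direction of the members as it was and widened it, to a median of -0.69. Scaling by all genes, which moved the median of all genes to 0.03, gave -1.05.

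**Figure D4:**
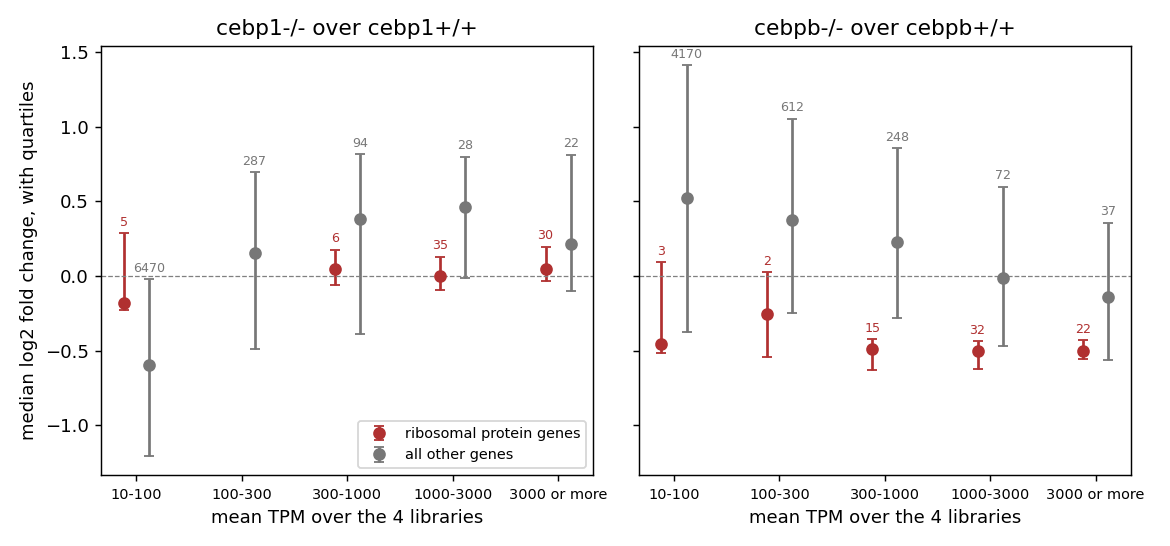
Median log2 fold change (y axis, bars from the lower to the upper quartile) of ribosomal protein genes (red) and of all other genes tested (grey) by mean TPM over the 4 libraries (x axis, from 10 TPM), with the number of genes above each bar, in the cebp1 table (left) and the cebpb table (right). In the cebpb table the members lie between -0.49 and -0.51 in the 3 highest ranges, while other genes lie between -0.14 and 0.23.

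In cebp1-/- cells ribosomal protein genes stayed near their wild-type levels on the deposited scale. The median log2 fold change over 80 members tested was 0.01, with 41 positive and 39 negative, beside -0.90 over all 25527 genes tested and -0.01 over the 1002 other genes of like expression (46.1 to 5019 TPM). It was -0.05 when libraries were scaled by genes of like expression and 1.08 when they were scaled by all genes, a scaling that moved the median of all genes to -0.08. Among members 23 (28.7%) were higher in both mutant libraries than in both wild-type libraries, beside a background of 4.94%, and 8 (10%) were lower, beside 61.3%. Genes of like expression were higher without overlap in 37.7% of cases and lower in 34%, so both shares were smaller among the members. Those genes had a median level of 85.7 TPM, against 2649 TPM for the members. The 50 other genes of 1000 TPM or more had a median log2 fold change of 0.35, with 58% higher and 14% lower without overlap. Between 1000 and 3000 TPM the medians were 0.46 for other genes and -0.003 for members, and at 3000 TPM or more 0.21 and 0.05. The median gene of a library was at 2.193 and 2.697 TPM in cebp1-/- cells, against 6.95 and 5.43 TPM in cebp1+/+ cells, and the mitochondrial rRNA gene mt-rnr2 took 26.8% and 22.8% of TPM in the mutant, against 20.5% and 22.4% in the wild type. Without mitochondrial and microRNA genes the median log2 fold change of the members was 0.06, and 0 were called.

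limma called 0 members higher and 0 lower in the cebp1 table as deposited, beside 0.0627% of all genes called higher and 0.114% lower. At an unadjusted p under 0.05, 4 members were higher and 2 lower, beside 448 higher and 7689 lower of 25527 genes. Scaled by all genes, 15 members were called higher and 0 lower, beside 1.16% of all genes called higher; that scaling also moved the calls over all genes from 16 higher and 29 lower to 297 higher and 25 lower. The large subunit had more members that were higher without overlap, 12 of 38 of at least 50 TPM with 0 lower, than the small subunit, 7 of 29 with 3 lower, and the difference between those counts was not tested.

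Among structural members above 20 TPM, the largest differences in the cebp1 table lay in a few large subunit and stalk genes. Below that level rps8b, rps15 and rps12 had log2 fold changes of -1.74, -1.36 and -1.06, all lower without overlap and at no more than 19.8 TPM in any library. rpl4, which lines the tunnel of the nascent peptide, had 4468 and 4202 TPM in cebp1-/- cells, against 3275 and 2737 TPM in cebp1+/+ cells (log2 0.53, SE 0.15, limma adjusted p = 0.0923). rplp0 had 9777 and 8760.4 TPM, against 7173 and 5916 TPM in the wild type (log2 0.51, SE 0.14, adjusted p = 0.0923). rpl7a had 5765 and 6232 TPM, against 4959.6 and 4077 TPM in the wild type (log2 0.41, adjusted p = 0.119). In all 3 both mutant libraries lay above both wild-type libraries, although no adjusted p passed the threshold. The gene rps19bp1 had the largest positive fold change above 20 TPM, with 35.7 and 39.5 TPM in cebp1-/- cells, against 26.9 and 14.8 TPM in cebp1+/+ cells (log2 0.87, SE 0.40, adjusted p = 0.17).

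On the lower side the differences among members above 20 TPM were smaller. rps23, a protein of the decoding centre, had 1910 and 2205 TPM in cebp1-/- cells, against 2517 and 2361 TPM in cebp1+/+ cells (log2 -0.25, adjusted p = 0.285). rps27.2 had 869 and 909.5 TPM, against 1142 and 970.3 TPM in the wild type (log2 -0.24). rpl38 and rplp2 came next at -0.20 each, both with overlapping groups. The 3 members of at least 50 TPM that were lower without overlap were all small subunit genes. In the cebp1-/- libraries replicate 2 exceeded replicate 1 in 66 of 71 members of at least 50 TPM, by a median of 0.28 on the log2 scale; the 5 exceptions, named after their values were seen, were rpl10a, rpl3, rpl4, rpl6 and rplp0. Without cebp1-/- replicate 1 the median fold change of the members was 0.17, and without replicate 2 it was -0.13, so the sign of that small median rested on single libraries.

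The effects of the mutations were compared directly in the 8-library fit, with each effect taken within its own table. The difference (cebp1 effect minus cebpb effect) had a median of 0.59 over 78 members, beside -0.98 over all 11536 genes, and passed the threshold for 7 members in the positive direction and 0 in the negative, beside backgrounds of 0.919% and 3.53% of all genes. The largest was rps3, with a difference of 1.28 (log2, SE 0.20, adjusted p = 0.0198), made of a cebp1 effect of 0.24 and a cebpb effect of -1.04. rplp0 followed with 1.06 (adjusted p = 0.0336), made of 0.51 and -0.56. The remaining 5 were rpl4 (0.96), rpl6 (0.88), rps14 (0.86), rpl15 (0.75) and rpl3 (0.74). In each of the 7, which were chosen for a positive difference on these same libraries, the cebp1-/- libraries lay above their wild type and the cebpb-/- libraries below theirs. None of the 7 calls stood when any 1 library of the cebp1 table or any 1 cebpb+/+ library was left out. The median difference of the members was 0.45 without cebpb-/- replicate 1 and 0.70 without cebpb-/- replicate 2. In both of these cases the calls rose among the members and over all genes.

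Paralog pairs were compared by the share of the pair's TPM that 1 member took, which does not depend on the scaling of a library. rps26 took 39.8% and 40.8% of the TPM of rps26 and rps26l in cebpb-/- cells, against 47.1% and 43.9% in cebpb+/+ cells, and 31.2% and 33.7% in cebp1-/- cells, against 35.3% and 36.9% in cebp1+/+ cells. Its share was thus lower in both mutants, without overlap. rps27.1 took 79.1% and 78.1% of the TPM of rps27.1 and rps27.2 in cebpb-/- cells, against 82.6% and 84.2% in cebpb+/+ cells, while the groups of the cebp1 table overlapped (71.6% and 74.8%, against 69.5% and 71.9%). rplp2 took 63.4% and 59.6% of the TPM of rplp2 and rplp2l in cebpb-/- cells, against 55.6% and 57.8% in cebpb+/+ cells, and 38.8% and 39.0% in cebp1-/- cells, against 39.8% and 43.1% in cebp1+/+ cells. The share of rplp2 was therefore higher in 1 mutant and lower in the other. With 2 libraries per group, these differences in share were not tested.

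Of the other pairs described here, those of rpl5a and rpl22 showed no separation between genotypes, and that of rps8a was one-sided. rpl5a took 49.2% and 48.4% of the pair with rpl5b in cebpb-/- cells, against 55.2% and 44.8% in cebpb+/+ cells, and 60.4% and 58.5% in cebp1-/- cells, against 61.9% and 54.4% in cebp1+/+ cells. rpl22, which with rpl22l1 has opposed roles in blood development in zebrafish and mouse, took 86.7% and 75.9% in cebpb-/- cells, against 70.4% and 82.6% in cebpb+/+ cells, and 65.5% and 65.3% in cebp1-/- cells, against 63.5% and 67.8% in cebp1+/+ cells. All 4 of these comparisons overlapped. rps8a held at least 99.5% of the pair with rps8b in every library. Paralogs can share reads, so a split between them depends on how the counting treated reads that fit both, which was not tested.

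**Figure D5:**
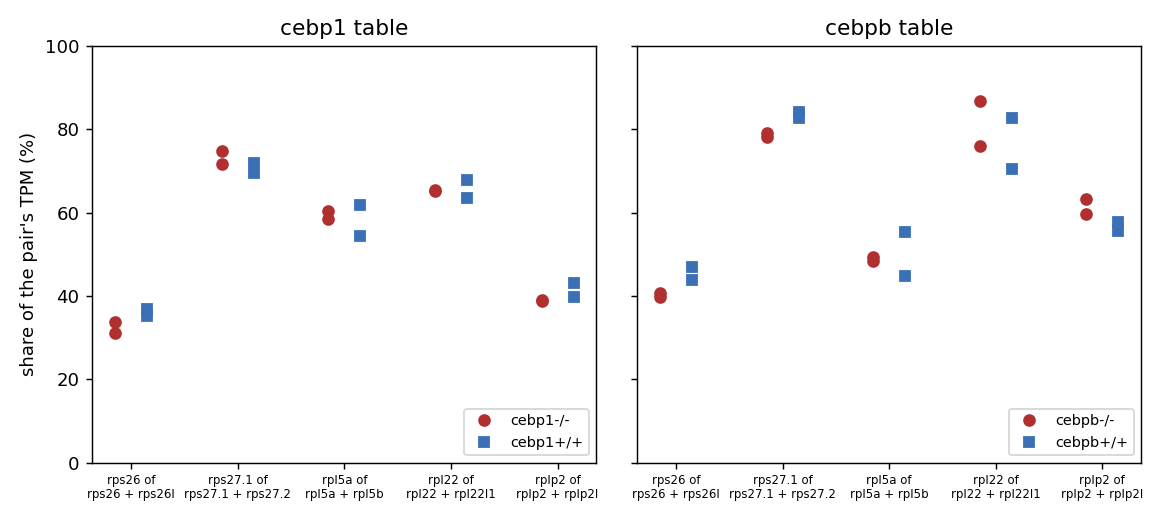
Share of each pair's TPM (%, y axis) held by its first gene in 5 paralog pairs (x axis), 1 point per library, with mutant circles left of wild-type squares, in the cebp1 table (left) and the cebpb table (right). The rps26 share is lower in both mutants, the rps27.1 share is lower in cebpb-/- cells, and the rplp2 share is lower in cebp1-/- and higher in cebpb-/- cells.

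Other genes whose mRNAs carry the TOP motif in mammals, namely translation factors and their partners, were read beside the members. Of 22 tested in the cebpb table, 11 were lower and 3 higher without overlap, with a median log2 fold change of -0.32 and 0 called in that table alone. The shares lower and higher were 14.7% and 31.2% of all genes, and 26.1% and 44.7% of genes of like expression. Among genes of 1000 TPM or more that are not members they were 42.2% and 38.5%. eef1g, a subunit of elongation factor 1, had 1623 and 1849.5 TPM in cebpb-/- cells, against 2819 and 2657 TPM in cebpb+/+ cells, and was the gene of this list called in the 8-library fit (log2 -0.66, adjusted p = 0.047). eef1a1l1 had 4162 and 4653 TPM, against 6479.9 and 5885 TPM in the wild type (log2 -0.49). pabpc1a, the cytoplasmic poly(A)-binding protein, had 909.7 and 656 TPM, against 544 and 515 TPM in the wild type (log2 0.54, not called). Of 23 tested in cebp1-/- cells, 12 were higher and 3 lower without overlap, with a median of 0.20 and 0 called. The shares higher and lower were 4.94% and 61.3% of all genes, and 37.7% and 34% of those of like expression. Among genes of 1000 TPM or more that are not members they were 58% and 14%. eef1a1l1 had 16036 and 13292 TPM in cebp1-/- cells, against 8920 and 7429 TPM in cebp1+/+ cells, and eef2b, elongation factor 2, had 2857 and 2413 TPM, against 1570.0 and 1067 TPM in the wild type. The list thus had a positive median in cebp1-/- and a negative one in cebpb-/- cells, in both cases also with libraries scaled by genes of like expression (0.14 and -0.51). These signs were not particular to the list. Genes of 1000 TPM or more that are not members had medians of 0.35 and -0.04 as deposited, and of 0.29 and -0.23 with that scaling.

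Many ribosomal protein genes of vertebrates carry small nucleolar RNA (snoRNA) genes in their introns. By the RefSeq annotation 21 of the 84 members held at least 1. In the cebpb table the 16 such members of at least 50 TPM had a median log2 fold change of -0.51, with 14 lower and 1 higher without overlap, and the other 56 a median of -0.49, with 51 lower. In the cebp1 table the 16 hosts had a median of 0.14, with 9 higher and 0 lower without overlap, and the other 55 a median of -0.02, with 11 higher and 3 lower. Over all genes 14.7% were lower and 31.2% higher without overlap in the cebpb table, and 61.3% lower and 4.94% higher in the cebp1 table. The difference between hosts and other members was not tested.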

How the data were processed

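The authors mapped reads on GRCz11 (STAR), assigned them to genes (featureCounts) and deposited 2 tables of TPM, each normalized separately; their own test, DESeq2, ran on counts that were not used here. Deposited TPM hold no depth, so no counting error can be attached to a value. All 8 columns were used; the annotation and gene lengths are not given in the sources used here.

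TPM as deposited were the main scale. Each table was filtered at a mean of at least 1 TPM over its 4 libraries and tested on log2(TPM + 1) with limma 3.58.1 in R 4.3.3 (mean-variance trend, two-sided, Benjamini-Hochberg over all genes tested, threshold 0.05). A fold change on this scale understates the change of low genes. Alternatives were pseudocounts of 0.1 and 5, no filter, a mean of at least 10 TPM, no trend, leaving out mitochondrial and microRNA genes, scaling by the median of ratios over genes of like expression or over all genes, a replicate block, and leaving out each library. The 8-library fit of single effects was added after seeing the data. The test was checked on simulated data. Figures used matplotlib 3.10.9 in Python 3.11.15.

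Named were the 5 genes the study names, the 4 highest and 4 lowest means per table, paralogs, stalk and assembly genes, and the 4 largest fold changes per direction above 20 TPM or those called. The members, lists and rules were chosen with earlier results of these data known. A few genes that the rule names are not reported here. No sequence was printed.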

Additional observations from a re-analysis of the deposited data

Results flagged for a closer look

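Of the ribosomal protein genes, 7 responded differently to the mutations when the effect in the cebpb table was subtracted from that in the cebp1 table (limma, 8 libraries, log2, adjusted over 11536 genes). The differences were 1.28 for rps3 (adjusted p = 0.0198), 1.06 for rplp0 (adjusted p = 0.0336), 0.96 for rpl4 (adjusted p = 0.0355), 0.88 for rpl6 (adjusted p = 0.0355), 0.86 for rps14 (adjusted p = 0.0491), 0.75 for rpl15 (adjusted p = 0.0453) and 0.74 for rpl3 (adjusted p = 0.0373). For rpl6, the cebp1-/- libraries had 2793 and 2689.7 TPM, against 2376 and 2029 TPM in cebp1+/+ cells, and the cebpb-/- libraries had 4403 and 4987 TPM, against 6988 and 6828 TPM in cebpb+/+ cells. In all 7 the direction was opposite in the 2 tables in 4 of 4 mutant libraries. The 7 were chosen for this difference on the same libraries, so their directions add no support. Over all 11536 genes 0.919% passed in the positive direction. None of the 7 calls stood when any 1 library of the cebp1 table or any 1 cebpb+/+ library was left out.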

How the results depend on the processing

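With each table fitted alone, 0 members were called under either pseudocount, either filter, no trend, scaling by genes of like expression or without mitochondrial and microRNA genes. Scaled by all genes, 15 cebp1 members were called higher and the medians were 1.08 (cebp1) and -1.05 (cebpb); scaled by genes of like expression the cebpb median was -0.69. With a replicate block 3 members were called higher in the cebp1 table, beside 223 higher and 2176 lower of 25527 genes. In the cebpb table that setting called 6 members lower, beside 199 higher and 74 lower of 11660 genes. The deviations of same-numbered libraries correlated at 0.011 and -0.017. A single value per table cannot exclude a shared batch, and the labels give only a replicate number. The 8-library fit called 18 cebpb members lower and 1 higher, beside 223 lower and 493 higher of 11536 genes. Scaled by genes of like expression it called 39 lower and 0 higher in the cebpb table, beside 283 lower and 375 higher of 11536 genes. Scaled by all genes it called 58 lower and 0 higher there, beside 415 lower and 248 higher of 11536 genes. With that scaling 54 members were called higher in the cebp1 table, beside 441 genes, and 70 in the difference between tables, beside 692 genes. The cause of these shifts was not tested.

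Leaving out 1 library at a time, the median ranged from -0.13 to 0.17 (cebp1) and from -0.60 to -0.40 (cebpb), the difference in the share of TPM from -0.67 to 3.08 points (cebp1) and from -7.18 to -5.28 points (cebpb), and 0 members were called in either table alone. In the 8-library fit the calls ranged from 0 to 41 lower and 0 to 2 higher (cebpb), stayed at 0 (cebp1), and ranged from 0 to 34 higher and 0 to 1 lower for the difference. The highest of these counts in the 8-library fit came from leaving out a cebpb-/- library, where the calls over all genes rose as well. The counts among members were not tested against that rise. An arm left with 1 library was assumed to vary like the other groups. Of the single-gene values under all alternatives, 1890 kept their side of the threshold or moved by less than the replicate spread, 24 newly passed and 132 moved. TPM give no depth, so precision rests on 2 libraries per group.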
